A study of Rhamphochromis sp. 'chilingali' and Astatotilapia calliptera with 50 samples.

Results

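In embryos of Lake Malawi cichlid fishes, 46 long noncoding RNAs (lncRNAs) fell as somites were added in both species examined. They were found among the 1664 lncRNAs of the deposited table, of which 1087 passed a filter of at least 10 normalized counts in 2 or more of the 47 embryos from 4ss to 30ss (ss, somite stage, the number of somite pairs). Each of the 46 had a Spearman correlation between its level and the somite count of -0.6 or below within each species, and a ratio of species means (each plus 1) below 8 in both directions. All members therefore passed the filter, and since they were chosen by their fall between 4ss and 30ss and by the species ratio, that fall is described here and not tested.

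The embryos, all wild-type, were of Astatotilapia calliptera (AC, from the Mbaka stock) and of Rhamphochromis sp. 'chilingali' (RC), and each library was made from 1 whole embryo. The labels call them tank-reared, and by the study's methods eggs were taken from the females after fertilization and raised singly in well plates with methylene blue. AC gave 3 embryos at each of 4ss, 10ss, 15ss, 18ss, 20ss, 22ss, 26ss (labelled 27ss) and 30ss, 24 in all. RC gave 3 at the same stages and at 37ss but 2 at 4ss, 26 in all. The embryos of a species came from a single clutch, so species and clutch cannot be told apart, and the p-values below measure the spread between siblings.

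LncRNAs are transcripts without a long reading frame. Some act on chromatin or on neighbouring genes, some host small RNAs in their introns, and for many no role is known. During somitogenesis the trunk is laid down from head to tail while transcripts of earlier stages, some of them supplied by the mother, are lost and tissues differentiate. In whole embryos, fewer cells that make a transcript and less of it per cell cannot be told apart. The members carry locus identifiers only, with no gene names, so no function is assigned to any of them below, and their positions, neighbours and sequences were not analysed here.

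Correlations with somite count ran from -0.92 to -0.61 in AC (median -0.79, 24 embryos) and from -0.98 to -0.64 in RC (median -0.78, 23 embryos). The 3 members just inside the threshold were LOC113012132, LOC113018490 and LOC113008183, with weaker correlations of -0.607, -0.610 and -0.615. LOC113020778, LOC113023577 and LOC113029289 lay just outside, at -0.598, -0.593 and -0.575. As the mean of both species LOC113012132 fell least of all members, from a mean of 181 to 149 normalized counts in AC, whereas LOC113029289 outside the threshold fell from 28.6 to 2.53. A small fall could thus meet the rule and a larger one miss it. A further 5 lncRNAs met both correlations but were left out by the species ratio, among them LOC113027857, whose mean was 789.98 in AC and 6.57 in RC. The 46 members were 4.23% of the lncRNAs that passed the filter, and the same rule with its sign turned found 67 rising lncRNAs (6.16%). Among the genes of the accompanying gene table, 10.7% of 21123 passed the falling rule and 19.3% the rising one. The median embryo had 22579546 reads on these genes and 97836 on lncRNAs. Few reads weaken a correlation, so the shares of genes and lncRNAs are not directly comparable.

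Each library held between 83125 and 149632 reads on lncRNAs, of which 25744 to 68142 fell on the members. The members included the lncRNAs with the highest and second highest mean count of the table, LOC113013304 and LOC113013708, and 6 of the 8 highest. Since longer transcripts give more reads, these counts rank reads and not molecules. The median over members of the mean count was 115, against 13.7 over the 1087 lncRNAs. Counting noise weakens a correlation where reads are few, so the rule itself favours lncRNAs with many reads. How far this raised the counts of the members was not tested. There were 6 members that averaged 1000 counts or more, 17 between 100 and 1000, and 23 below 100. Together the members held 43.1 ± 3.10% of the normalized lncRNA counts at 4ss in AC (SD, n = 3) and 29.4 ± 1.11% at 30ss. In RC the share was 47.7 ± 1.62% at 4ss (SD, n = 2), 34.1 ± 2.98% at 30ss and 30.3 ± 1.16% at 37ss (SD, n = 3 each). LOC113013304 alone made up between 30.0% and 58.8% of the members' counts in an embryo. Without it, the summed count of the other 45 fell from 34724 ± 5628 to 10929 ± 302 in AC. In RC the sum went from 36084 ± 8533 at 4ss to 15309 ± 2153 at 30ss and 11669.5 ± 841 at 37ss. Among these 45, LOC113013708 alone went from a mean of 4951 at 30ss to 1434 at 37ss in RC. The last step of the sum and of the share thus does not describe the members as a set.

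**Figure D1:**
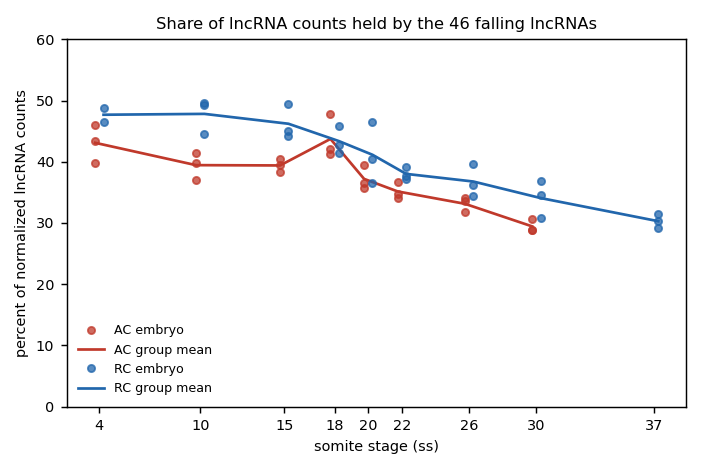
Percent of all normalized lncRNA counts held by the 46 falling lncRNAs in each embryo (points, red AC, blue RC) and group means (lines) against somite stage. AC went from a mean of 43.1% at 4ss to 29.4% at 30ss with a second high at 18ss (43.7%), and RC from 47.7% to 30.3% at 37ss.

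The size of the fall differed widely between members. In AC the group mean at 30ss was between 1.37% and 82.0% of that at 4ss, with a median of 20.7%, and in RC between 0.79% and 79.9%, with a median of 39.7%. On the log2(mean + 1) scale the median member fell by 2.21 in AC and by 1.31 in RC, against 0.11 and 0.18 over all lncRNAs that passed the filter. At most 10% of the level of 4ss was left in 15 members in AC and 11 in RC, and more than 50% in 5 and 15. Members with a high mean count fell less: of the 23 averaging 100 counts or more, the median kept 36.6% in AC and 54.0% in RC, and of the 23 below 100 counts 9.18% and 24.0%. That mean was taken over the same embryos of 4ss to 30ss, so a steep fall itself lowered it. The relation is thus partly built in. The larger fall was in AC for 35 members and in RC for 11.

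The fall was also earlier in AC when stages were matched by somite count, a description for which no test was run. By the study, somitogenesis ends at 30 somites in AC and at 38 in RC, so a matched stage lay further along it in AC. Neither the size nor the timing of the fall was tested against relative stage. The median member was at 59.9% of its level of 4ss at 10ss in AC and at 82.7% in RC, and at 45.1% and 77.7% at 15ss. Between 4ss and 10ss, the group mean was lower at the later stage in 45 of 46 members in AC and in 38 in RC. From 15ss to 18ss only 19 were lower at the later stage in AC, against 38 in RC. The AC means of 18ss hold an embryo in which most members stood above their siblings, described further on, and this count was not made without it. The first stage at which the group mean was at or under 50% of that at 4ss came by 15ss for 26 members in AC and 15 in RC. It was reached by 30ss in both species for 33 members, earlier in AC for 21 of these, earlier in RC for 3 and at the same stage for 9. All of these values start from the 4ss means of 3 AC and 2 RC embryos.

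**Figure D2:**
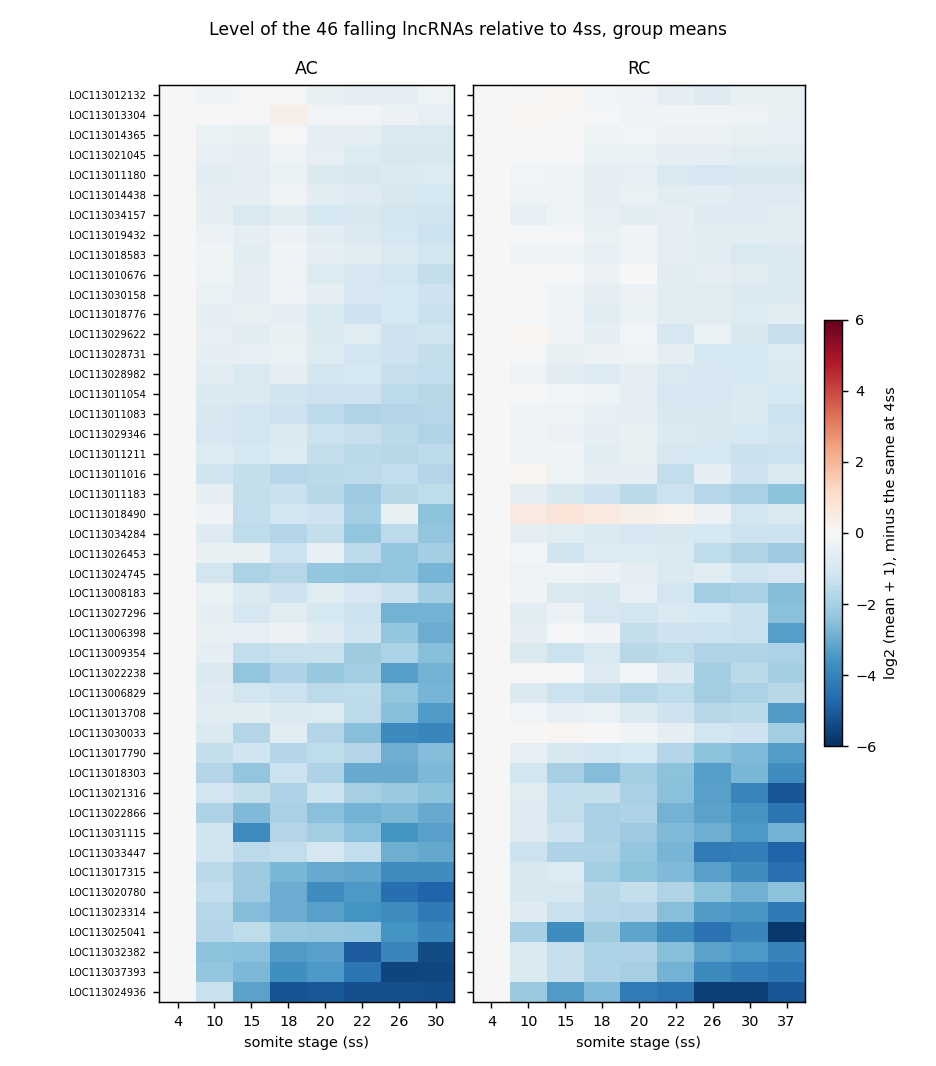
Level of each of the 46 members at each stage relative to 4ss (colour, difference of log2(group mean + 1), blue lower), in AC (left) and RC (right, with 37ss), ordered from the smallest mean fall at the top to the largest at the bottom. The members at the top stayed pale at every stage. Those near the bottom darkened, though not at every step, with LOC113037393 and LOC113032382 darker at 10ss in AC than at 15ss in RC.

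Of the 8 members with the most reads, 6 kept between 40.5% and 79.9% of their level of 4ss at 30ss. The other pair, LOC113013708 and LOC113021316, described further on, fell more steeply, to 9.49% and 18.1% in AC and 32.6% and 6.26% in RC. LOC113013304 counted 20605, 18529 and 22542 in the 3 AC embryos of 4ss and 14354, 14084 and 15626 in those of 30ss, and these groups did not overlap. In RC it counted 18110.3 and 21382 at 4ss, 16026, 13817 and 17459 at 30ss and 15033, 13576 and 15415 at 37ss. Its course was not even: the 3 AC embryos of 18ss, at 22769, 32381 and 24491, were above all 3 of 20ss, and the RC embryos of 18ss ranged from 12012 to 23941. LOC113030158, LOC113014438, LOC113018583, LOC113014365 and LOC113019432 behaved alike in size. LOC113030158 went from 5072 ± 804 (SD, n = 3) to 2154 ± 202 in AC and from 3446 ± 422 (SD, n = 2) to 1886 ± 342 in RC. LOC113014438 kept 48.2% of its level of 4ss at 30ss in AC and 58.7% in RC, LOC113018583 45.99% and 53.2%, LOC113014365 53.4% and 74.6%, and LOC113019432 40.5% and 62.6%. None of these 6 was called between 30ss and 37ss in RC, with log2 differences from -0.10 to 0.05. RC at 37ss was between 54.9% (LOC113018583) and 74.3% (LOC113013304) of RC at 4ss.

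The steepest falls were of members that lost nearly all of their counts. LOC113024936 counted 65.4, 132 and 67.3 in AC at 4ss, 39.9, 2.17 and 62.4 at 10ss and 0.97, 0.919 and 1.89 at 30ss. In RC it counted 93.2 and 64.3 at 4ss, 34.9, 0.962 and 12.9 at 10ss and 0, 0.914 and 0.952 at 30ss. Siblings of 10ss thus lay far apart in both species, with 1 embryo of each close to 0. LOC113025041 was uneven in the same way. In AC it counted 65.4, 18.3 and 42.4 at 4ss and 22.1, 0 and 13.1 at 10ss, and in RC 144 and 71.3 at 4ss and 49.2, 9.62 and 20.7 at 10ss. In either species the same embryo of 10ss was the lowest in both lncRNAs.

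LOC113037393 lost most of its level in AC before 10ss and in RC over the whole series. It counted 388, 254 and 469.9 in AC at 4ss, 39.9, 87.9 and 90.6 at 10ss and 6.79, 7.35 and 8.49 at 30ss. In RC it counted 727 and 732 at 4ss, 303, 524 and 379.8 at 10ss, 36.3, 51.2 and 39.0 at 30ss and 29.2, 30.6 and 40.5 at 37ss. The lowest RC embryo of 10ss was thus close to the AC embryos of 4ss. LOC113023314 and LOC113032382 followed the same course at lower counts. LOC113023314 went from 100.5 ± 37.8 (SD, n = 3) at 4ss over 29.5 ± 11.9 at 10ss to 4.35 ± 2.75 at 30ss in AC, and from 278 ± 11.3 (SD, n = 2) over 161 ± 60.6 to 23.4 ± 4.46 in RC. LOC113032382 went from 92.4 ± 45.8 over 16.2 ± 5.32 to 1.27 ± 0.582 in AC, and from 270.3 ± 33.6 over 142 ± 59.4 to 24.0 ± 4.00 in RC. The AC embryos of 30ss held at most 1.94 counts of LOC113032382 and the RC embryos of 30ss at least 20.1. LOC113017315 and LOC113033447 completed the steep members together with LOC113020780. LOC113017315 kept 7.09% of its level of 4ss at 30ss in AC and 6.68% in RC, and LOC113033447 7.97% and 4.85%. LOC113020780 kept 2.58% in AC, where it started at 107, 73.4 and 109.7, and 9.84% in RC, where it started at 25.5 and 18.5.

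**Figure D3:**
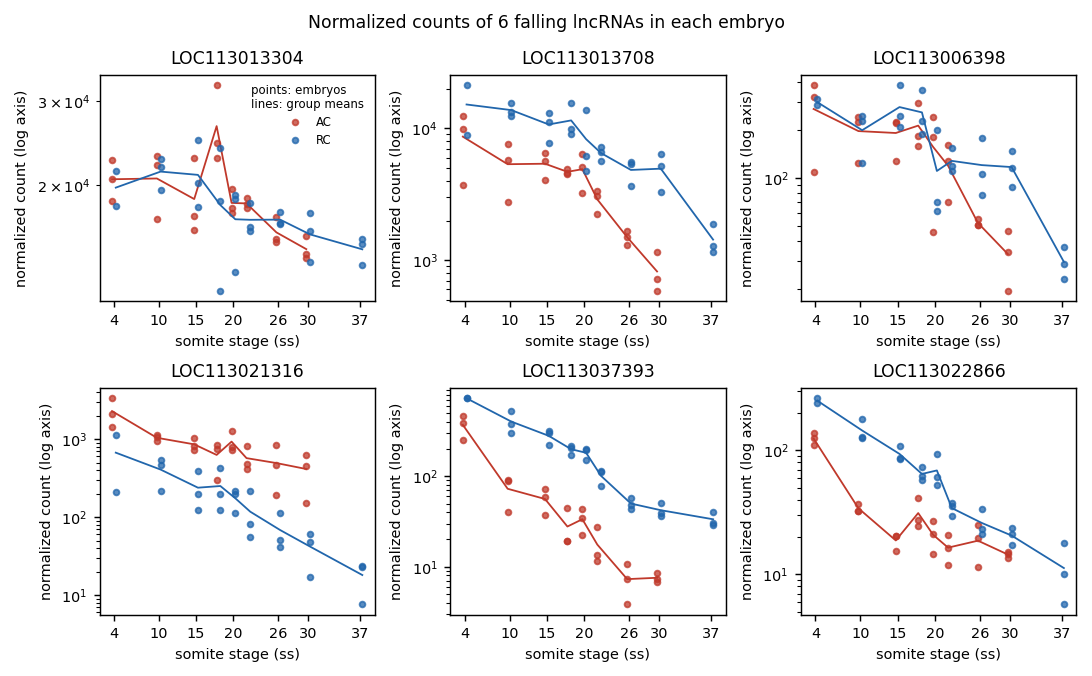
Normalized counts (log axis) of 6 members in each embryo (points, red AC, blue RC) and group means (lines) against somite stage. LOC113013304 fell little, LOC113037393 and LOC113022866 fell most before 10ss in AC, and LOC113013708 and LOC113006398 dropped after 20ss in AC and again between 30ss and 37ss in RC.

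The 37ss embryos took no part in choosing the members, so the step from 30ss to 37ss in RC asks whether the fall went on. The RC embryos of 30ss did take part. LOC113013708 fell. It counted 21414 and 8968 at 4ss, 5709, 6587 and 7209 at 22ss, 5199, 3279 and 6375 at 30ss and 1152, 1272 and 1877 at 37ss, so that every embryo of 37ss was below every embryo of 30ss. The log2 difference was -1.77 ± 0.38 (SE, n = 3 and 3, limma, adjusted p = 0.0258). It was past the threshold in DESeq2 but not in edgeR (adjusted p = 0.0501), nor without RC replicate 1 (adjusted p = 0.207) or replicate 3 (0.083), nor when the 6 embryos were fitted alone (0.253). The difference itself stayed between -1.97 and -1.56 over the fits that left out a replicate. In AC the same lncRNA had counted 12366, 9912 and 3710.3 at 4ss, 2254, 3067 and 3365 at 22ss and 585, 1158 and 723 at 30ss. AC at 30ss was thus at 9.49% of its level of 4ss, RC at 30ss at 32.6% and RC at 37ss at 9.44%.

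LOC113006398, singled out after its values were seen, ran beside it at lower counts. It counted 115, 87.8 and 148 at 30ss and 23.2, 28.7 and 36.8 at 37ss in RC, again without overlap, with a log2 difference of -1.94 ± 0.48 that missed the threshold in limma (adjusted p = 0.0814) and passed it in DESeq2 (0.0381). In AC it had counted 381, 324 and 108 at 4ss and 19.4, 45.9 and 34.0 at 30ss. The lowest of the AC embryos of 4ss in LOC113006398 was also the lowest in LOC113013708.

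Across the members, little more could be called at 37ss. In limma 1 of 46 (2.17%) was lower and 0 were higher. Of the 1100 lncRNAs tested 1 was lower (0.0909%), LOC113013708 itself, and 1 was higher (0.0909%). Between 0 and 2 members were called when a replicate was left out, 0 in edgeR and 2 in DESeq2. At an unadjusted p under 0.05, 5 members (10.9%) were lower, against 5.09% of all lncRNAs, and 0 were higher, against 2.45%. Besides the pair above these were LOC113022866, LOC113027296 and LOC113025041, with log2 differences of -0.93 ± 0.30, -1.22 ± 0.44 and -1.84 ± 0.89 (SE). All 3 embryos of 37ss were below all 3 of 30ss in 8 members (17.4%) and in 7.27% of all lncRNAs, and above them in 0 members and 5.73%. The gap was wide in LOC113013708 and LOC113006398 but narrow in others of the 8. The lowest embryo of 30ss and the highest of 37ss were at 3.81 and 3.77 in LOC113018303 and at 20.1 and 18.9 in LOC113032382. In LOC113025041 they were at 3.63 and 1.89, close to the floor. The group mean was lower at 37ss in 30 of 46 (65.2%), against 52.5%, and the median log2 difference was -0.18 over the members and -0.04 over all lncRNAs.

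Species were compared at the same somite count, at which AC was further along somitogenesis, with reads of both aligned to the A. calliptera genome. The rule bears on this comparison, since it asked for a fall in both species and for less than an 8-fold ratio of their means. As the mean of 8 stages, 18 of 46 members (39.1%) were higher in RC and 2 (4.35%) lower, at an adjusted p under 0.05 and a fold over 1.5 in limma. Over all 1087 lncRNAs 36.2% were higher and 27.4% lower, and over the 941 within the same 8-fold limit 33.5% and 24.4%. The share of higher members was thus near that of all lncRNAs, and the share of lower ones was below it. With no fold limit 36 members passed, 25 higher in RC and 11 lower, but the share of all lncRNAs without that limit was not counted. The median difference of RC minus AC was 0.29 over the members and 0.10 over all lncRNAs on the log2 scale. Quantile normalization moved the median of all lncRNAs to -0.04 and that of the members to 0.34, and called 16 members higher and 4 lower.

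The members with the largest excess in RC were LOC113032382, LOC113024745, LOC113018303, LOC113023314 and LOC113037393, at log2 differences of 2.95 ± 0.16, 2.62 ± 0.15, 2.47 ± 0.21, 2.45 ± 0.16 and 2.35 ± 0.13 (SE, 23 RC and 24 AC embryos, limma, highest adjusted p of the 5 3.4e-13). Of these, LOC113018303 was called at 7 of 8 stages and the others at every stage. The other 3 members called higher in RC at every stage, named after their values were seen, were LOC113028731, LOC113029622 and LOC113011180, with differences of 1.49 ± 0.11, 1.42 ± 0.11 and 0.84 ± 0.08. Of their level of 4ss they kept 36.3%, 41.9% and 55.8% at 30ss in AC and 47.8%, 50.7% and 51.2% in RC. LOC113024745 counted 46.4, 59.0 and 33.7 at 4ss and 4.85, 10.1 and 2.83 at 30ss in AC. In RC it counted 139.8 and 96.0 at 4ss and 53.5, 54.8 and 44.7 at 30ss, so the RC embryos of 30ss lay within the range of the AC embryos of 4ss. LOC113018303 counted 4.74, 11.8 and 12.5 in AC and 53.3 and 57.2 in RC at 4ss, and at 30ss 0 in 2 of 3 AC embryos. Its log2 difference was 3.80 with a pseudocount of 0.1, the largest of the 5, and 0.97 with 10, the smallest, so its place among them depends on the constant added.

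At these thresholds only LOC113021316 and LOC113020780 were lower in RC. LOC113021316 counted 3354, 2089.8 and 1411 at 4ss and 634, 459 and 150.0 at 30ss in AC. In RC it counted 1132 and 210.5 at 4ss, 17.2, 61.2 and 47.6 at 30ss and 23.2, 7.66 and 23.6 at 37ss. Its log2 difference was -2.22 ± 0.22 (SE, adjusted p = 4.0e-11, limma), called at 6 of 8 stages, and it was 1 of the 11 members that fell further in RC. The RC embryos of 4ss lay far apart, and both were under all 3 AC embryos. LOC113020780, at -0.65 ± 0.20 (adjusted p = 0.00374, limma), was called at 2 stages and lost the call with pseudocounts of 0.1 and 10 and without AC replicate 2 or 3.

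Stage by stage, 35 of 46 members (76.1%) were called at 1 stage or more, beside 71.7% of all lncRNAs. Of these 25 were higher in RC at some stage (39.3% of all), 11 lower (33.7% of all), with 1 in both counts. The 11 include 4 called lower at 18ss and at no other stage, LOC113013304, LOC113030158, LOC113014438 and LOC113014365. The share of all lncRNAs lower at 18ss was not counted. The number of members lower at 18ss was between 0 and 7 over the other settings. These include a fit without 1 AC embryo of that stage that stood high, as described below. At all 8 stages 7 were higher and 0 lower, and the share of all lncRNAs called at every stage was not counted. At 4ss the split was 10 higher and 6 lower (20.8% and 12.8% of all lncRNAs), at 15ss 18 and 2 (24.1% and 18.5%), and at 30ss 17 and 2 (22.1% and 15%). The median of the members moved from -0.05 at 4ss to 0.47 at 15ss and 0.48 at 30ss, while that of all lncRNAs was 0.37, 0.08 and 0.17. The counts of 4ss rest on 2 RC embryos: without RC replicate 1 or 3 they were 3 and 3, or 6 and 3, and without AC replicate 1 the 6 lower became 3. At 30ss the 17 higher became 11 without RC replicate 3 and 12 with a pseudocount of 10, and the 2 lower at 15ss or 30ss became 1 in several of the fits that left out a replicate.

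**Figure D4:**
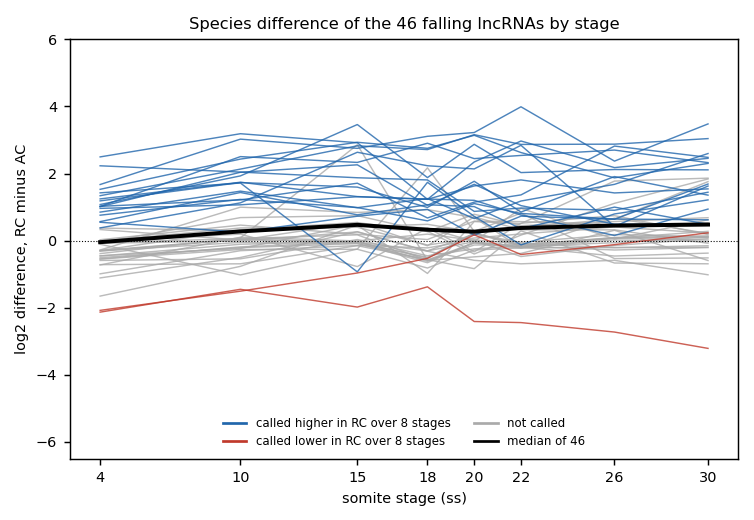
Difference of RC minus AC on the log2 scale at each of 8 stages for the 46 members (thin lines, blue called higher in RC as the mean of 8 stages, red called lower, grey not called) and their median (black). The median rose from -0.05 at 4ss to 0.47 at 15ss, and 1 red line, LOC113021316, ran down to -3.21 at 30ss.

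Whether the difference of a member changed with stage was asked by an F-test over the 8 stages. LOC113022866 passed it (limma, adjusted p = 0.00509), as 1 of 46 members (2.17%) beside 4.97% of all lncRNAs. In AC it counted 138, 110.1 and 126 at 4ss, 32.6, 32.5 and 37.2 at 10ss and 13.6, 14.7 and 15.1 at 30ss. In RC it counted 264 and 239.5 at 4ss, 127, 178 and 129 at 10ss and 23.6, 21.0 and 17.1 at 30ss. RC minus AC on the log2 scale began at 1.01, widened to 2.04 by 10ss and 2.26 by 15ss, and ended at 0.47 with the embryos of 30ss. Without RC replicate 2 or 3 its adjusted p was 0.0668 and 0.0508. LOC113011016 (adjusted p = 0.0714) and LOC113018490 (0.0797) came next and passed with a pseudocount of 10, with quantile normalization and in DESeq2. LOC113011016 went from 442, 287 and 260.5 at 4ss to 141, 139.9 and 144 at 10ss in AC, where RC held 217, 353 and 297. LOC113018490 did not fall at once in RC, where it counted 16.6 and 9.69 at 4ss, 18.1, 27.5 and 23.0 at 15ss and 1.81, 4.57 and 9.52 at 30ss. The number of members that passed was between 0 and 6 over the other settings.

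The rule ranked single embryos, so differences between siblings entered it, separately for each lncRNA. The members were thus not chosen apart from these differences. The rule did not use whether members deviated together. It did ask all of them to fall over 47 of these embryos, so joint deviation is not independent of the choice. Some members moved together among siblings. Each embryo's log2 value was taken as its deviation from the mean of its group, over 50 embryos. LOC113013708 and LOC113006398 deviated together (Pearson's r = 0.82, Spearman's rho = 0.82), with r = 0.86 over the 24 AC and 0.77 over the 26 RC embryos and 0.79 without the 2 farthest from the median. LOC113014365 and LOC113014438 deviated together more closely (r = 0.90, rho = 0.90), with r = 0.95 in AC, 0.86 in RC and 0.89 without the 2 farthest. LOC113013304 went with LOC113014365 (r = 0.84), LOC113018583 (0.79) and LOC113014438 (0.79), so that these 4 members stood high or low in the same siblings. These are descriptions of the pairs with the highest correlations, with no test, since the values of an embryo share 1 library and 1 scaling factor. Over all pairs of the 23 members averaging 100 counts or more the median r was 0.17, and over all pairs of the 136 lncRNAs at that level 0.02. The 136 were not chosen by direction, so these medians do not compare like sets. Of the 1035 pairs of members 19 were above 0.7, a share that was not counted over all lncRNAs. The embryo that stood highest over its siblings was the second AC embryo of 18ss. Its members lay 0.27 above the mean of their group in the median, against 0.02 for all lncRNAs, and 32 of 46 were at their highest there among the 3 siblings. Without this embryo the rule found the same 46 members, 1 of them was lower at 37ss, and 19 were higher and 1 lower in RC.

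**Figure D5:**
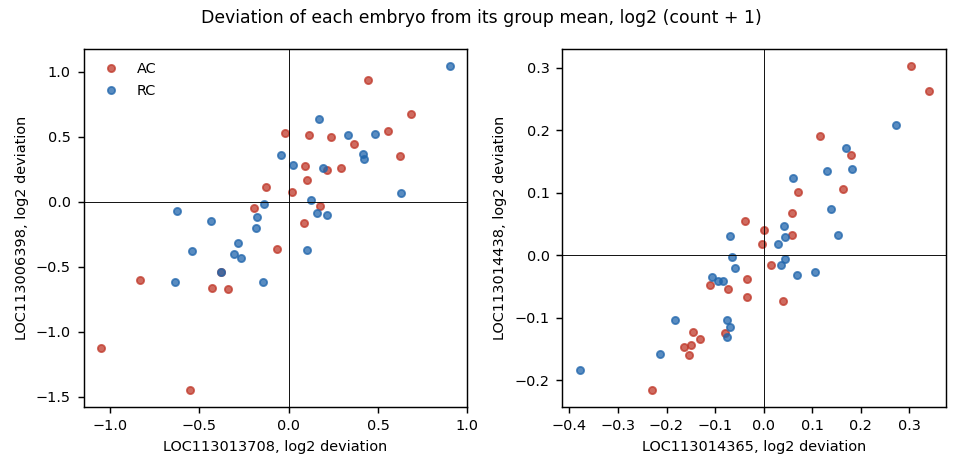
Deviation of each of 50 embryos (red AC, blue RC) from its group mean on the log2(count + 1) scale, for LOC113006398 against LOC113013708 (left) and LOC113014438 against LOC113014365 (right). In both panels points ran from lower left to upper right, with r of 0.82 and 0.90.

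The last stages sampled, AC at 30ss and RC at 37ss, were also set side by side. By the study, the first is the end of somitogenesis in AC and the second is close to its end in RC. The absolute log2 difference of group means had a median of 0.48 between AC at 30ss and RC at 37ss and of 0.62 between the groups of 30ss, and RC at 37ss was the nearer in 26 of 46 members (56.5%). Over the 1087 lncRNAs the medians were 0.94 and 1.09, and RC at 37ss was the nearer in 54.5%. AC at 30ss was below RC at 30ss in 34 members and below RC at 37ss in 28, counts that were not made over all lncRNAs. These comparisons share the AC embryos and were not tested.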

How the data were processed

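RNA of single whole embryos was sequenced as stranded polyA libraries with paired reads. Per the labels and the study's methods, the authors trimmed reads with Trim Galore, aligned those of both species with STAR to the A. calliptera genome, kept uniquely mapped reads, counted them and divided the counts by DESeq2 size factors. The deposited values are thus a signal, normalized counts per lncRNA or gene and embryo, and the source of the lncRNA annotation is not given in the sources used here. The lncRNA table lists entries whose highest value exceeds 5, and its size factors were between 0.986 and 1.034 times those of the gene table. Dividing by the smallest step gave whole reads for 100% of values (within 0.01). Columns of group means (17) and of the highest value were not used, and the tables of transposons and genes served for no test.

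The members and lists were chosen with earlier results of these data known. Values were log2-transformed after adding 1 and fitted with limma 3.58.1 (R 4.3.3) with a trended variance, as group means over 50 embryos for the step to 37ss (1100 lncRNAs) and over 47 embryos for species comparisons (1087). P-values were adjusted by Benjamini-Hochberg over all lncRNAs, and a call needed an adjusted p under 0.05 and a fold over 1.5 (F-test: adjusted p alone). Fold changes on this scale understate those of low counts. The fits were also run on simulated counts with the same dispersion for all lncRNAs and no fall over the stages. That run checked the code and not how well the fits suit these data. On the recovered reads edgeR 4.0.16 called 0 lncRNAs at 37ss, 665 between species and 9 in the F-test, against 2, 691 and 54 in limma, and DESeq2 1.42.0 called 2, 698 and 78.

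Members named were the 8 with the highest mean, the 8 with the largest fall, up to 5 called in each direction at 37ss and between species, the 3 with the smallest p of the F-test and the 3 at each side of the correlation threshold. No 2 siblings agreed within sampling noise (chi-square of 5.54 or more per degree of freedom over 49 pairs). Replicate numbers did not pair embryos: same-numbered embryos of 2 groups had correlations of their deviations between -0.106 and 0.188. Lists of marker genes could not be read, since an identifier was paired with a name for 1 of their 76 genes. No table at hand placed the lncRNAs on a genome, so neighbouring genes and promoters were not analysed here.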

Additional observations from a re-analysis of the deposited data

Results flagged for a closer look

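LOC113022866 differed between the species by an amount that varied over the 8 stages (limma F-test, adjusted p = 0.00509). RC minus AC was 1.01 at 4ss, 2.26 at 15ss and 0.47 at 30ss on the log2 scale. The call was lost without RC replicate 2 (limma F-test, adjusted p = 0.0668). It was 1 of 46 members (2.17%) that passed, beside 4.97% of all lncRNAs.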

How the results depend on the processing

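The number of members was 75 with a correlation of -0.5 or below, holding all 46, and 27 with -0.7. It was 47 to 49 when a replicate number was left out (35 to 39 of the 46 among them), and 38 without 4ss (32 shared). With a pseudocount of 10 the median fall was 1.498 in AC and 1.13 in RC on the log2 scale, and it was 2.09 to 2.34 in AC and 1.27 to 1.42 in RC when a replicate number was left out. At 37ss, 0 members were called in edgeR and when the 6 embryos were fitted alone, 2 in DESeq2 and 0 to 2 when a replicate was left out. Between species over 8 stages, 36 members were called with no fold limit, 11 of them lower in RC, with no share of all lncRNAs counted at that setting. The number lower was 1 with a pseudocount of 10, 4 with quantile normalization, 1 with a log2 limit of 1, 1 without the second AC embryo of 18ss (chosen after seeing the data) and 1 to 3 when a replicate was left out, which called 18 to 21 in all. At 1 stage or more, 23 members were called with a log2 limit of 1 and 27 to 37 when a replicate was left out. The F-test passed 6 members with a pseudocount of 10, 3 with quantile normalization, 4 in DESeq2 and 0 to 2 when a replicate was left out. Over all 1087 lncRNAs the F-test passed 86 with a pseudocount of 10, 56 with quantile normalization and 78 in DESeq2, against 54 in the main fit. At 1 stage or more, 769, 762 and 745 of all lncRNAs were called without AC replicate 1, 2 or 3. Without RC replicate 2 the number was 724, against 779 in the main fit. These fits tested 1054, 1058, 1066 and 1074 lncRNAs, and the main fit 1087. Without RC replicate 1 or 3 the number was lower than in any of these, in fits that left 1 RC embryo at 4ss. With a log2 limit of 1 the number over all lncRNAs was not counted. The replicate block left the counts of members at 1, 20, 35 and 1. Direction was followed over the settings only for LOC113013708 and LOC113006398 at 37ss and for the members named for a species call. None of these turned, and the direction of the other members was not followed. The causes were not tested. A fold limit has no bearing on the F-test, the species mean already used only the embryos compared, and the alternatives for neighbouring genes were not run. Where leaving out a replicate left RC at 4ss with 1 embryo, that embryo was assumed to vary like the others. Members under 20 counts rest on few reads at late stages.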
